A study of Mus musculus with 14 samples.

Results

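Neurocan (Ncan) and 8 further genes of the perineuronal net were followed in hippocampal RNA of mice labelled LPAR2-/- and of wild-type (WT) mice. The set was the lecticans Ncan, Bcan, Acan and Vcan, the link proteins Hapln1 and Hapln4, the tenascins Tnr and Tnc, and Ptprz1, taken by name from the 24421 genes of the counts table. All 9 were among the 14897 genes with enough reads to be tested. Ncan was selected on its known difference in read counts between the genotypes of these same mice, Hapln4 as its direct neighbour, and the others for their place in the same matrix. The differences between the genotypes are therefore given for these genes as descriptions, without a test.

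Perineuronal nets are lattices of extracellular matrix that wrap the cell body and proximal dendrites of certain neurons, above all parvalbumin-positive interneurons and, in the hippocampus, CA2 pyramidal cells. Their backbone is hyaluronan, to which lecticans, proteoglycans that carry chondroitin sulfate chains, are clamped by link proteins and cross-linked by tenascins. Nets form as critical periods close, and they limit plasticity of the synapses they surround. Astrocytes, oligodendrocyte precursors and neurons all contribute components, and the same proteins are also found in the looser matrix between cells.

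The study asked which transcripts accompany the loss of LPAR2, a receptor for lysophosphatidic acid that acts at glutamatergic presynapses. The 14 libraries came from 7 naive male mice labelled LPAR2-/- and 7 naive male WT mice, 1 library per mouse, all labelled strain 129.C57Bl6 and 10 to 12 weeks old. The age is uncertain, because text deposited with the series describes older animals, and the tissue is hippocampus on the labels but dentate gyrus in the account of the results. LPAR2-/- mice carry a deletion in exon 2 of the gene and were bred as homozygotes beside a separate control colony of mixed C57BL/6 and 129/SvJ background, so that genotype and colony cannot be told apart. Neither a treatment nor a transgene was used in either group.

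Per mouse, 15434620 to 23258949 reads fell on genes, with medians of 19964167 in WT and 19499276 in LPAR2-/- mice. Against its label, Lpar2 was higher in every library labelled LPAR2-/- (144 to 234 counts, against 27 to 66 in WT; log2 fold change 2.01 ± 0.16, SE; edgeR, adjusted p = 8.22e-07), and counts per gene do not separate transcripts with and without the deleted stretch. The genotypes are therefore named here by their labels. Of all genes tested, 1009 passed an adjusted p under 0.05 in edgeR's quasi-likelihood test, 494 higher (3.32%) and 515 lower (3.46%), together 6.77%. The ranges of the genotypes did not overlap in 264 genes (1.77%). Every LPAR2-/- library lay outside the WT range in the summed markers of some cell type or tissue, and the cases given here are examples. LPAR2-/- mouse 3 had 4002 CPM of summed oligodendrocyte markers, where the WT mice had 1231 to 2090, and LPAR2-/- mouse 2 had 281 CPM of summed choroid plexus markers, where the WT mice had 29.1 to 33.8. LPAR2-/- mice 6 and 7 had 753 and 830 CPM of summed interneuron markers, below the 920 to 1056 of WT, and LPAR2-/- mice 4, 5 and 6 had 310 to 386 CPM of summed meningeal markers, above the 46.5 to 280 of WT. Of the markers checked, all 8 of astrocytes, all 10 of dentate gyrus and CA neurons and 11 of 12 of interneurons (all but Erbb4) were among the genes tested. In bulk RNA, fewer cells of a type and less RNA per cell cannot be told apart, and counts per gene do not part isoforms such as the membrane-anchored form of brevican or the secreted form of Ptprz1, phosphacan.

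Ncan encodes neurocan, a secreted lectican that is largely restricted to the nervous system. It lies on the minus strand of chromosome 8 (mm10, chr8:70093085-70120844), 262 kb beyond the end of Lpar2, and was counted over 15 exons that together span 7166 bases. Because Ncan differed between the genotypes while its closest relative in level, Bcan, did not move by more than the spread between mice, the sequence upstream of both starts is shown. Each is the stretch from 250 to 31 bases before the RefSeq start (GRCm38.p6, chr8:70120875-70121094 and chr3:88000387-88000606, both on the minus strand and printed 5′ to 3′). Capitals mark matches to GGGCGG and CCAAT on either strand.
Ncan: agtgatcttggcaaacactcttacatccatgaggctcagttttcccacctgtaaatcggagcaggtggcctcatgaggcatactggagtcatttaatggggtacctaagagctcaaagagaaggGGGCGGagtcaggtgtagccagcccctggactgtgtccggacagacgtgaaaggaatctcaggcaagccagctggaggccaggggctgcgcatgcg
Bcan: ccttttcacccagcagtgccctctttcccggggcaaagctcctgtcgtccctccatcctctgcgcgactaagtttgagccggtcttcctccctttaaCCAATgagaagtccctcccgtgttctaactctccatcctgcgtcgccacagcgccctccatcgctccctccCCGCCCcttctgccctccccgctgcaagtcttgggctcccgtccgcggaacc

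Of these windows 55.5% of bases in Ncan and 62.7% in Bcan were G or C, against a median of 51.8% over all 32851 RefSeq windows of this length. The letters GGGCGG, searched on both strands, were present once in each of both windows, in 6 of the 8 genes of the set with a RefSeq window, and in 28.5% of all windows. CCAAT was present in Bcan, Acan and Vcan and in 31.0% of all windows. TATAAA was found in Tnc alone among the 8 (10.0% of all windows), and TGANTCA (6.12%) and TGACGTCA (1.14%) in none. Matches to different patterns did not overlap in the Ncan and Bcan windows. These matches describe letters in the windows and say nothing of factors bound there.

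Ncan was lower in mice labelled LPAR2-/-. The 7 WT mice had 296.5, 322 and 341 CPM as the lowest, median and highest value, and the 7 LPAR2-/- mice 175, 190 and 201 CPM (the reads of a gene scaled to a fixed total of reads on genes). Every LPAR2-/- mouse lay below every WT mouse, and the gap between the groups was wider than the range within either. The means were 319.8 ± 14.3 CPM in WT and 190 ± 9.47 CPM in LPAR2-/- mice (SD, n = 7 each), a log2 fold change of -0.75 ± 0.04 (SE, 95% interval -0.83 to -0.67), or 40.5% less. Leaving out each mouse in turn, those named above for their marker sums included, gave -0.77 to -0.73. Between 3104 and 7069 reads stood behind each of these values.

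The spread of Ncan within a genotype was small. After the genotype means were removed, its SD between mice was 0.07 on the log2 scale, lower than in most genes (percentile 10.7 of all genes tested, whose median SD was 0.14).

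Bcan encodes brevican, the most abundant lectican of the adult brain. In WT mice its lowest, median and highest values were 258, 282 and 312 CPM, and in LPAR2-/- mice 261, 276 and 306 CPM. The ranges lay almost on top of each other. The log2 fold change was -0.03 ± 0.04 (SE, 95% interval -0.12 to 0.07), and its lower bound is far from the value of Ncan.

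Acan encodes aggrecan, the lectican that is most specific to perineuronal nets. It was read at a low level, with 6.40, 7.87 and 11.8 CPM in WT and 4.89, 6.42 and 9.28 CPM in LPAR2-/- mice. The ranges overlapped, and 2 of 7 LPAR2-/- mice lay above the WT median. The log2 fold change of -0.26 had a 95% interval from -0.61 to 0.09 and was -0.16 without WT mouse 7, and 100 to 210 reads per mouse carried each value.

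Vcan encodes versican, a lectican made in part by oligodendrocyte precursors. It was read at 13.8, 18.7 and 19.4 CPM in WT and at 12.8, 17.2 and 18.5 CPM in LPAR2-/- mice. Although the ranges overlapped, all 7 LPAR2-/- mice lay below the WT median. The log2 fold change was -0.09 (95% interval -0.27 to 0.10), and -0.04 without LPAR2-/- mouse 6.

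**Figure D1:**
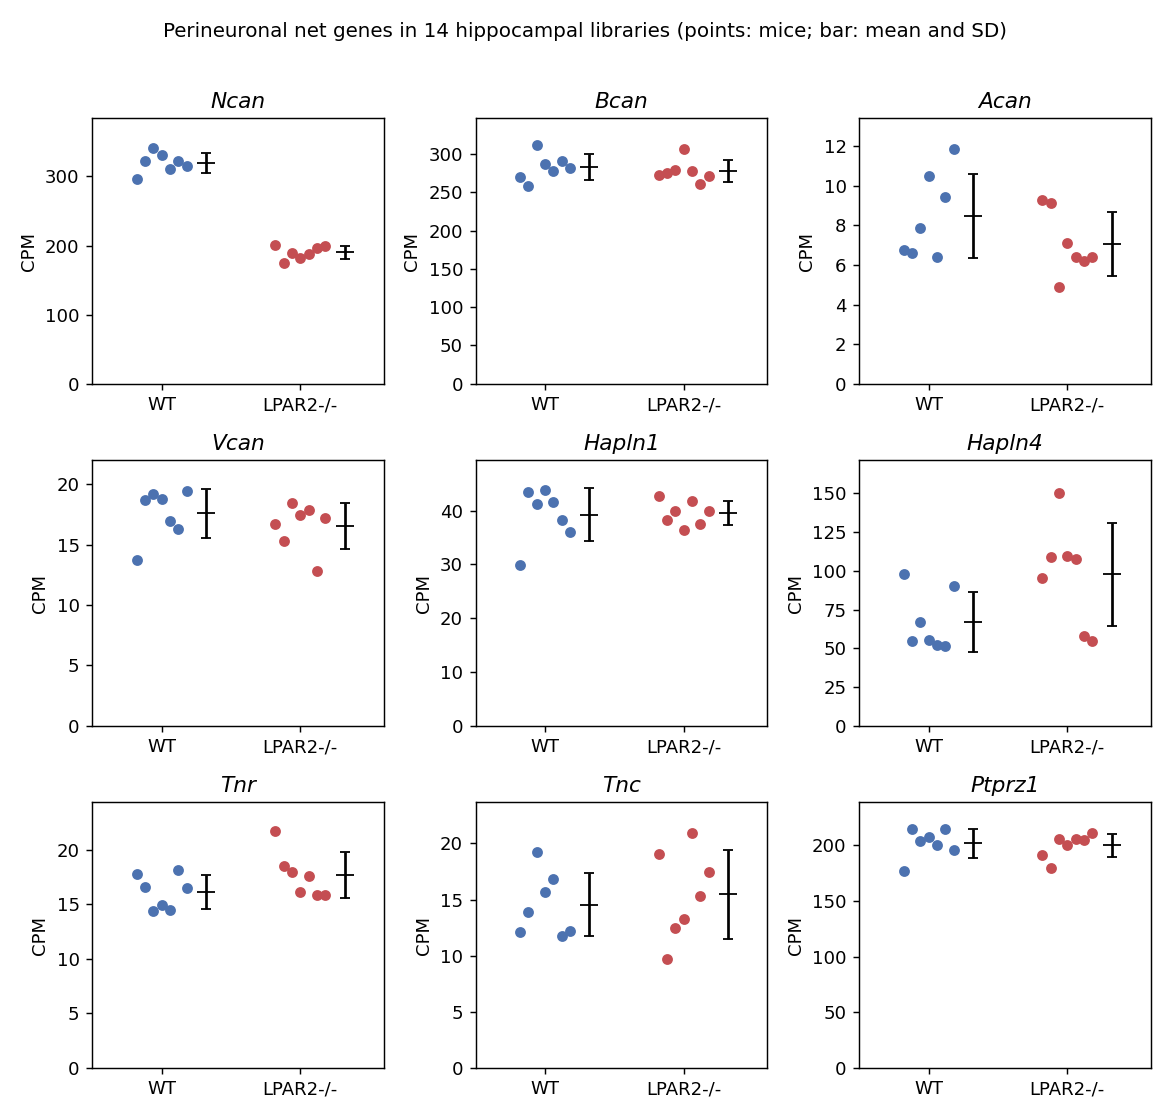
CPM (vertical axes, from 0) of the 9 genes in each of 7 WT mice (blue) and 7 mice labelled LPAR2-/- (red), with the mean and SD as black bars. The Ncan values separate completely (296.5 to 341 against 175 to 201 CPM), Hapln4 has the widest spread relative to its level, and the other 7 genes overlap.

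Levels of different genes were compared per length, as TPM, reads per base of counted exon scaled to a fixed total. In WT mice Bcan was highest (230 TPM on average), followed by Ncan (138), Ptprz1 (77.7), Hapln4 (57.9), Hapln1 (24.1), Tnr (9.26), Tnc (6.35), Vcan (3.72) and Acan (3.58). Among neighbours in that order the WT ranges overlapped for Ptprz1 and Hapln4, for Tnr and Tnc, and for Vcan and Acan, and the other neighbours were apart in every WT mouse. In LPAR2-/- mice the mean of Ncan was 82.5 TPM, just under that of Hapln4 at 85.0 TPM, and Ptprz1 (77.1 TPM) lay above Hapln4 in only 2 of 7 mice, against 5 of 7 in WT. The positions of Bcan, Hapln1, Tnr, Tnc, Vcan and Acan were those of WT.

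The make-up of the lectican transcripts differed accordingly. Ncan was 36.8% ± 1.05 of the TPM sum of the 4 lecticans in WT (36.03% to 39.06%) and 26.1% ± 1.66 in LPAR2-/- mice (23.5% to 28.1%; SD, n = 7 each). Bcan was 61.2% in WT and 71.8% in LPAR2-/- mice, while Acan and Vcan took about 1% each (0.949% and 0.987% in WT, 0.946% and 1.11% in LPAR2-/- mice). The sum itself was 376 ± 20.3 TPM in WT and 316 ± 12.6 TPM in LPAR2-/- mice, and its ranges did not overlap (345.7 to 408.9 against 300.5 to 339.5 TPM). The ratio of Ncan to Bcan within a mouse, which does not depend on library scaling, was 0.602 ± 0.028 in WT and 0.365 ± 0.031 in LPAR2-/- mice.

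**Figure D2:**
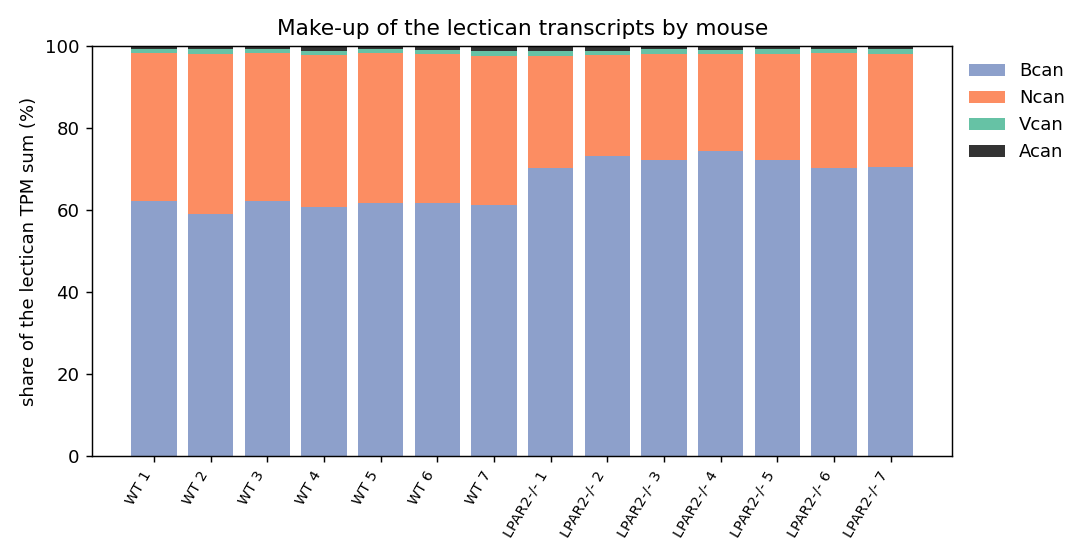
Share of each lectican in the TPM sum of Bcan, Ncan, Vcan and Acan (vertical axis, percent) for each of the 14 mice. The Ncan band is 36.03% to 39.06% in WT and 23.5% to 28.1% in LPAR2-/- mice.

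Of the link proteins, Hapln1, which joins lecticans to hyaluronan in nets throughout the brain, was level. Its lowest, median and highest values were 30.0, 41.2 and 43.9 CPM in WT and 36.4, 39.9 and 42.7 CPM in LPAR2-/- mice. The LPAR2-/- values all lay inside the WT range, with a log2 fold change of 0.01 (95% interval -0.14 to 0.16).

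Hapln4, the link protein that is best known as a partner of brevican at perisynaptic nets, was the most variable gene of the set. It lies tail to tail with Ncan on the opposite strand (chr8:70083529-70090862, 5 exons, 3576 bases), 2222 bases away, and reads were counted by strand. In WT mice its values were 51.4, 55.2 and 98.0 CPM, and in LPAR2-/- mice 54.5, 108 and 151 CPM.

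The Hapln4 ranges overlapped from 54.5 to 98.0 CPM, with 6 of 7 LPAR2-/- mice above the WT median. The means were 66.9 ± 19.3 CPM in WT and 97.9 ± 33.2 CPM in LPAR2-/- mice, a log2 fold change of 0.55 ± 0.23 (SE, 95% interval 0.06 to 1.05). Without LPAR2-/- mouse 3, the highest, it was 0.42. The within-genotype SD of 0.47 on the log2 scale was at percentile 94.1 of all genes tested. The ratio of Hapln4 to Hapln1 in TPM was 2.53 ± 1.12 in WT and 3.51 ± 1.19 in LPAR2-/- mice.

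Of the tenascins, Tnr encodes tenascin-R, which cross-links lecticans in the nets and is made largely by oligodendrocyte lineage cells. Its values were 14.4, 16.4 and 18.2 CPM in WT and 15.9, 17.6 and 21.7 CPM in LPAR2-/- mice. The ranges overlapped, and the log2 fold change was 0.13 (95% interval -0.03 to 0.30), and 0.08 without LPAR2-/- mouse 1.

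Tnc encodes tenascin-C, a glycoprotein of the developing brain that persists in adult niches. It ran from 11.8 to 19.2 CPM in WT (median 13.9) and from 9.68 to 20.9 CPM in LPAR2-/- mice (median 15.3). The WT range lay inside that of the LPAR2-/- mice, with a log2 fold change of 0.08 (95% interval -0.26 to 0.43).

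Ptprz1 encodes a receptor phosphatase whose secreted form, phosphacan, is itself a chondroitin sulfate proteoglycan of the nets. It was read at 177 to 215 CPM in WT (median 204) and 179.9 to 211 CPM in LPAR2-/- mice (median 205). Nearly the same range was covered in both genotypes, and the log2 fold change was -0.02 (95% interval -0.11 to 0.08).

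Over the set, 4 genes were higher and 5 lower in LPAR2-/- mice, with a median log2 fold change of -0.02 beside 0.003 over all genes tested. Ncan was the 1 gene of 9 past the threshold and the 1 gene of 9 without overlap, beside 6.77% and 1.77% of all genes, and since this contrast chose the set nothing is read from those counts. In 6 of the 9 genes the difference was within 0.15 on the log2 scale, and the 95% interval held 0 in 7, the exceptions being Ncan and Hapln4.

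**Figure D3:**
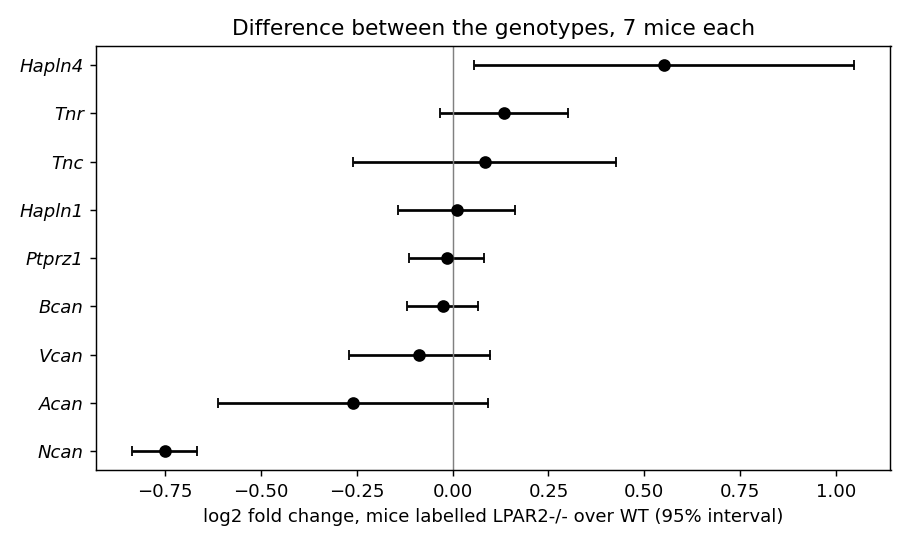
Log2 fold change of the 9 genes between 7 mice labelled LPAR2-/- and 7 WT mice (horizontal axis; points with 95% intervals from edgeR), ordered by size. Ncan lies at -0.75 with a narrow interval, Hapln4 at 0.55 with a wide one, and the intervals of the other 7 genes hold 0.

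The genes on either side of the pair were measured in the same fit. Of the 3 genes tested on each side, 3 of 6 passed the test, beside 6.77% of all genes. Mau2, a cohesin loader separated from Hapln4 by Sugp1 and Tm6sf2, rose with a log2 fold change of 0.60 (edgeR, adjusted p = 2.62e-08). On the far side of Ncan, Rfxank, a subunit of the RFX complex, fell by 0.29 (edgeR, adjusted p = 0.000361) and 2310045N01Rik fell by 0.77 (edgeR, adjusted p = 2.37e-08).

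Of the other 3, Sugp1 at 0.19 (edgeR, adjusted p = 0.0767), Tm6sf2 at -0.33 (0.38) and Nr2c2ap at -0.02 (0.847) did not pass. Neighbours thus differed in both directions, and 2310045N01Rik shares its locus with a read-through entry, so that reads there are split or dropped. In a window of 500 kb on either side, set after the values were seen, 12 of 36 other genes passed, 6 in each direction, where 6.77% of all genes tested passed. Lpar2 is one of them.

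**Figure D4:**
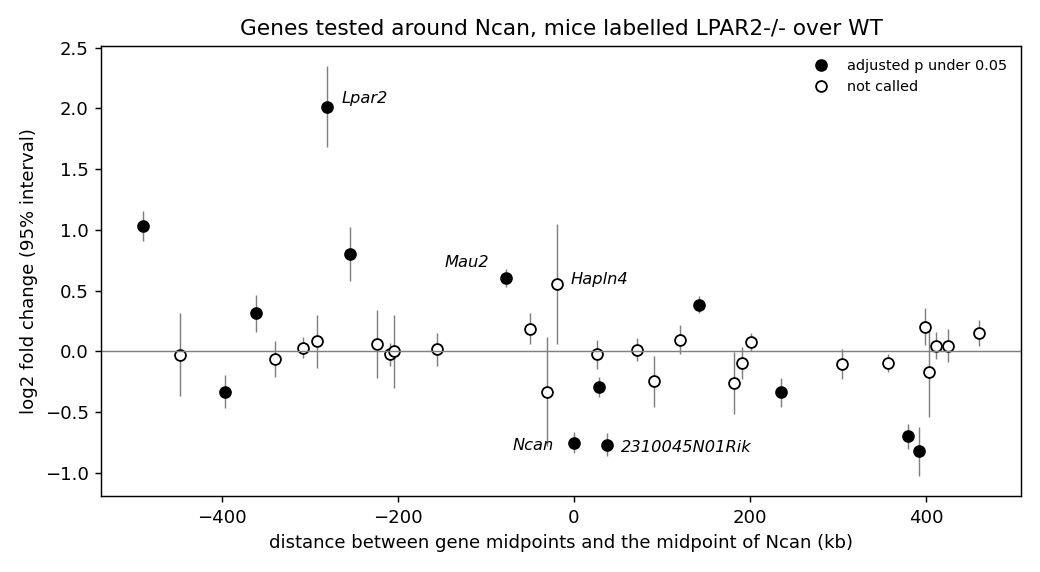
Log2 fold change with 95% interval (vertical axis) of the genes tested within 500 kb of Ncan, by the distance of their midpoint from that of Ncan (horizontal axis, kb). Filled points passed the test and open points did not; besides Ncan, 6 genes rose and 6 fell, among them Mau2 at 0.60 and 2310045N01Rik at -0.77.

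The genes whose log2 CPM over the 14 mice was most like that of Ncan were 2310045N01Rik (Pearson r = 0.976), Chchd2 on chromosome 5 (0.952), Acp1 on chromosome 12 (0.945), Fam163a on chromosome 1 (0.944) and Rfxank (0.938). All 5 differed between the genotypes in the direction of Ncan, and r over both genotypes together mainly carries that difference. With the genotype means removed, the closest were 2610203C22Rik (0.818), Slc40a1 (0.811), Arhgef7 (0.795), Vwa9 (0.787) and Sorbs2 (0.786), none of them shared with the first list. No gene had r above 0.9 with Ncan in that comparison. The mice share the dissection and library behind each value, so these are descriptions.

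Hapln4 was different in this respect. With the genotype means removed, 137 genes had r above 0.9 with it and 134 below -0.9. The 5 closest, chosen after the values were seen, were Iqsec3 (0.982), Lsm11 (0.973), Pfkp (0.968), Prkca (0.966) and the proteoglycan Spock1 (0.965).

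Markers of several cell types, among them those of hippocampal fields, interneurons and oligodendrocytes, moved with Hapln4. Grik4 (0.926), Elavl2 (0.924) and Neurod6 (0.918), which mark CA pyramidal neurons, varied in its direction, and Prox1 (-0.800), Dsp (-0.793) and Calb1 (-0.810), which mark dentate granule cells (Calb1 also other neurons), in the opposite one. Fibcd1 (-0.259) and Wfs1 (0.474), markers of CA1, and Iyd (0.065) and Zbtb20 (-0.274) of the same list followed it less closely. The 11 interneuron markers ran from near 0 (Vip, -0.006) over Gad1 (0.276) and Kcns3 (0.435) to Pvalb (0.780), Slc32a1 (0.877) and Kcnc2 (0.911). All 7 oligodendrocyte markers varied in the direction of Hapln4, from 0.543 (Cnp) to 0.731 (Mog). The CA2 markers were divided: Map3k15 (0.797), Necab2 (0.744) and Amigo2 (0.596) varied with it, Pcp4 (-0.793) and Rgs14 (-0.645) against it, and Cacng5 was at 0.046.

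The field markers themselves spread widely between mice. Neurod6 ran from 77.5 to 184 CPM in WT and from 47.5 to 171 CPM in LPAR2-/- mice, and Prox1 from 33.5 to 45.2 and from 39.4 to 55.1 CPM.

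LPAR2-/- mice 6 and 7 had the lowest Neurod6, the highest Prox1 and, at 57.9 and 54.5 CPM, the lowest Hapln4 of their group. WT mice 1 and 7 had the highest Neurod6 and, at 98.0 and 90.0 CPM, the highest Hapln4 of theirs. Prox1 did not follow in the same way among WT mice. It was lowest in mouse 1 (33.5 CPM) but 43.3 CPM in mouse 7. WT mouse 5, with the lowest Prox1 after mouse 1 (37.8 CPM), had the lowest Neurod6 (77.5 CPM) and 52.4 CPM of Hapln4. The ratio of Hapln4 to Iqsec3 in CPM was 0.251 ± 0.035 in WT (0.221 to 0.312) and 0.403 ± 0.065 in LPAR2-/- mice (0.312 to 0.507). The ranges met only at their ends. Iqsec3 was picked for its closeness to Hapln4 in these mice, so this ratio is a description. Nor does the ratio hold Iqsec3 level: with the genotype means removed it still rose with Hapln4 (r = 0.956). LPAR2-/- mice 6 and 7 had 169 and 175 CPM of Iqsec3, below the WT range of 228 to 316 CPM.

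An index of the field markers was then added to the fit, a choice made after the spread of Hapln4 was seen. It was the mean log2 CPM of Neurod6, Grik4, Elavl2, Fibcd1 and Wfs1 minus that of Prox1 and Dsp, and it ran from -0.73 to 0.10 in WT and from -1.51 to -0.06 in LPAR2-/- mice. With it, the log2 fold change of Hapln4 was 0.79 ± 0.10 (SE, 95% interval 0.57 to 1.01), with less than the former error. Because the markers of the index were already seen to move with Hapln4, this value is a description too, and 12.5% of all genes tested were called with the index, against 6.77% without. Ncan was at -0.78 (95% interval -0.85 to -0.70), and Tnr was at 0.17 (0.0011 to 0.34). How much of the Hapln4 spread came from the share of each field or cell type in the dissected tissue was not tested.

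**Figure D5:**
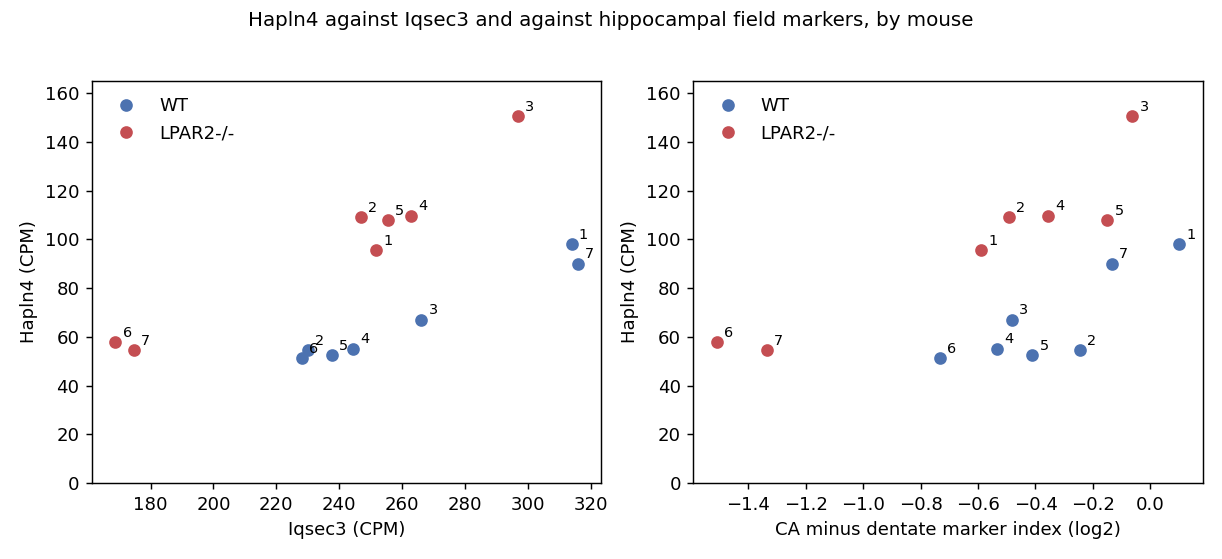
Hapln4 (vertical axes, CPM) against Iqsec3 (left, CPM) and against the CA minus dentate marker index (right, log2) in WT mice (blue) and mice labelled LPAR2-/- (red), numbered as on the labels. Hapln4 rises with both measures within a genotype. In WT the relation to the index rests mainly on mice 1 and 7. The other WT mice lie at 51.4 to 67.0 CPM over indices of -0.73 to -0.25. LPAR2-/- mice 1 to 5 sit above the WT mice of like Iqsec3, and LPAR2-/- mice 6 and 7 have no WT mouse of like Iqsec3.

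Variation between mice of one genotype was also compared among the 9 genes themselves, over 36 pairs and with the genotype means removed. No pair passed Benjamini-Hochberg adjustment in a two-sided permutation test (mice permuted within genotype), and 7 had an unadjusted p under 0.05 by Pearson's r and 1 by Spearman's rho. Ncan varied most closely with Tnc (r = 0.661, rho = 0.543; permutation p = 0.0160 and 0.0612, adjusted 0.193 and 0.451), and without the 2 mice farthest from the median r was 0.443. With Bcan it had r = 0.088 (permutation p = 0.769, adjusted 0.892), and with its neighbour Hapln4 r = -0.533 and rho = -0.556 (permutation p = 0.0657 and 0.0536, adjusted 0.296 and 0.451). At 14 mice, no relation between genes of the set was thus shown.

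Other genes of the matrix were counted in lists. Among 9 tested genes for hyaluronan and the other link proteins, 2 rose and none fell (22.2%), where 6.77% of all genes were called. Tmem2, a cell surface hyaluronidase, rose from 19.3 to 24.9 CPM on average (log2 fold change 0.37 ± 0.07, SE; edgeR, adjusted p = 0.00449). Hapln3, a link protein expressed mostly outside the brain, was read at only 0.788 CPM in WT and 1.44 CPM in LPAR2-/- mice (log2 fold change 0.86; edgeR, adjusted p = 0.0373), and kept its call only when LPAR2-/- mouse 2, LPAR2-/- mouse 6 or WT mouse 1 was the one left out.

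None of 12 other brain proteoglycans passed edgeR's test, with 1 at an unadjusted p under 0.05 and 0 by DESeq2. Bgn, biglycan, was at 0.74 (edgeR, adjusted p = 0.158; 0.99 and 0.048 without WT mouse 4) and Cspg5, neuroglycan C, at 0.11 (0.23). Meningeal markers, among whose cells biglycan is abundant, were higher in all 8 of 8 genes, 1 of them (Lum) past the test, with summed levels of 72.7 to 386 CPM in LPAR2-/- and 46.5 to 280 CPM in WT mice, and their part in the Bgn value was not tested.

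Of 21 tested enzymes of chondroitin sulfate synthesis, 2 rose and 1 fell (14.3%), against 6.77% called over all genes. Chst12 (0.26; edgeR, adjusted p = 0.0325) and Chst11 (-0.24; 0.0329) are both sulfotransferases that place sulfate on the 4-position of the chain. Csgalnact1, which starts the chain, rose by 0.50 (edgeR, adjusted p = 0.0378). Like Ncan it lies on the chromosome of Lpar2 (Csgalnact1 at chr8:68356781-68735146, Lpar2 at chr8:69822565-69831102). What part this place has in its value was not tested.

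All 3 calls depended on which mice were in the fit, and 2 on the processing. Chst11 was not called with scaling by the upper quartile (edgeR, adjusted p = 0.0583) or Csgalnact1 without the filter on low counts (0.0556). Chst12 lost its call in 8 of 14 fits that left out 1 mouse (LPAR2-/- 2, 5 or 6, or WT 3 to 7), Chst11 in 6 (LPAR2-/- 2, 4 or 6, or WT 2, 3 or 7) and Csgalnact1 in 9 (LPAR2-/- 1, 2, 4, 6 or 7, or WT 3, 4, 5 or 7). Within a genotype Csgalnact1 (r = -0.895) and Chst11 (0.859) moved with Hapln4 across the mice. With the marker index in the fit Csgalnact1 was at 0.35 (edgeR, adjusted p = 0.0133) and Chst11 at -0.17 (0.0137).

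Of 15 proteases that cleave lecticans or tenascins and their inhibitors, none passed edgeR's test, while 4 had an unadjusted p under 0.05 and DESeq2 called 1. Timp3, an inhibitor held in the matrix, was at 0.37 (edgeR, adjusted p = 0.0953) and passed when WT mouse 4 was left out (0.0384). Timp4 was at -0.22 (edgeR, adjusted p = 0.118) and passed when LPAR2-/- mouse 3 was left out (0.0318).

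Of 20 receptors and binding partners, 1 rose and 4 fell (25%), beside 6.77% of all genes called. Rtn4rl1, a Nogo receptor homologue that binds chondroitin sulfate, fell by 0.22 (edgeR, adjusted p = 0.00296), Nrp1, a receptor for semaphorin 3A, by 0.26 (0.00455), Scn2b, a sodium channel subunit that binds tenascins, by 0.16 (0.012) and Nrcam, a neuronal adhesion molecule, by 0.14 (0.0232). The LPAR2-/- mice lay below all WT mice in Rtn4rl1 and Scn2b and, by a narrow margin, above all WT mice in Itgav, where 1.77% of all genes had no overlap. The call of Nrcam was lost without LPAR2-/- mouse 4, LPAR2-/- mouse 5 or WT mouse 2. Itgav, an integrin chain named after its value was seen, rose by 0.14 (edgeR, adjusted p = 0.028), a call lost without LPAR2-/- mouse 1 or 2 or WT mouse 2, 3 or 5.

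Over all 5 lists 10 of 77 tested genes passed (13%), beside 6.77% of all genes, with a median log2 fold change of 0.03. The lists were written with results of these data known, and this share was not tested. Among the genes that passed, Csgalnact1 and Nrp1 lie on the chromosome of Lpar2, Nrp1 far from it (chr8:128359073-128505475).

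Markers of the cells that carry or make the nets were read beside these values. Of 11 tested markers of parvalbumin and other interneurons none passed edgeR's test, and 9 were lower. Pvalb itself had 10.99 ± 1.28 CPM in WT and 9.78 ± 1.78 CPM in LPAR2-/- mice (SD, n = 7 each; edgeR, adjusted p = 0.411). Of 6 markers of CA2 pyramidal neurons 3 were higher and 3 lower, and 2 rose past the threshold (Rgs14 and Cacng5), beside 3.32% of all genes.

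None of 8 astrocyte markers passed, 6 were lower, and their summed level ran from 4243 to 5027 CPM in WT and from 4174 to 4877 CPM in LPAR2-/- mice. Their part in the value of Ncan, which astrocytes also make, was not tested. Of 7 markers of oligodendrocyte precursors, which make Vcan and other components, 5 were lower and 1 of them fell past the threshold (Gpr17), beside 3.46% of all genes. Their summed level ran from 189 to 238 CPM in WT and from 157 to 234 CPM in LPAR2-/- mice, where mice 1, 2, 6 and 7 lay below the WT range. Their part in the value of Vcan was not tested.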

How the data were processed

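RNA of 7 mice labelled LPAR2-/- and 7 WT mice was sequenced, with 1 library per mouse, so that replicates are mice. Per the submitters' processing notes and the file header, the authors used cutadapt 1.18 for trimming, STAR for alignment to mm10 and featureCounts 1.6.3 for counting reads of the reverse strand that had a single place and gene. These deposited counts were used as they stand. A deposited table of values normalized with DESeq2 1.22.2 was not used, and 0 columns of single samples were left out.

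Counts were normalized by TMM and tested with the robust quasi-likelihood test of edgeR 4.0.16 (R 4.3.3, limma 3.58.1) after filterByExpr, with no covariate. Genes with a Benjamini-Hochberg adjusted p under 0.05 were called. The procedure was tested on simulated data. CPM used TMM-scaled totals, log2 CPM a prior count of 2, and TPM the counted exon lengths. Pairs of genes were tested with 100000 permutations. Depth was 15434620 to 23258949 reads per mouse. No 2 libraries of a genotype were copies: over 42 pairs, chi-square was at least 3.41 per degree of freedom.

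The 9 genes and the lists were chosen with earlier results of these data known. Named beside them were Lpar2, the called genes of each list (4 with the smallest p if more, 2 if none), the 5 genes most like Ncan by each measure, the 3 genes tested on each side of the Ncan and Hapln4 pair, and Pvalb. Has1, Has2, Hmmr, Chst13, Mmp3, Plg, Timp1 and Otx2 had too few reads to be tested. Alternatives were DESeq2 1.42.0, other size factors, the upper quartile, no filter, at least 10 counts in every library, the mouse number as a block, each mouse left out and, added after the data were seen, the marker index. Promoter windows came from RefSeq (GRCm38.p6), which matched 8 of the 9 genes.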

Additional observations from a re-analysis of the deposited data

Results flagged for a closer look

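In 1 of 18 groups tested (9 genes in 2 genotypes), a single mouse stood apart from the others of its genotype. Bcan was 306.151 CPM in LPAR2-/- mouse 4, whereas the next value was 279.654 CPM, a gap of 0.592 of the whole range, past the critical value for 7 mice. Chance gives such a gap in about 1 in 20 groups. Without this mouse the log2 fold change of Bcan was -0.05, against -0.03 with it.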

How the results depend on the processing

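Ncan had log2 fold changes of -0.78 to -0.73 over 7 other settings and -0.77 to -0.73 over 14 fits without 1 mouse, which describe the mice that chose it. Hapln4 ranged from 0.53 to 0.79 and from 0.42 to 0.67. Hapln1, Tnc and Ptprz1, close to 0, changed sign in at least 1 fit. The number of genes called was 567 to 1385 without 1 mouse (275 to 660 higher, 292 to 725 lower), lowest without WT mouse 2 and highest without WT mouse 1. With 1 mouse left out the lists held 1 to 3 calls (hyaluronan and link proteins), 0 to 1 (other proteoglycans), 0 to 4 (chondroitin sulfate synthesis), 0 to 1 (proteases) and 3 to 6 (receptors). Mice of the same number were not reliably alike (correlations -0.33 to 0.31, 3 of 7 above 0.1), so the numbers do not pair them. A replicate block by mouse number left 586 genes called (314 higher, 272 lower), with 1 hyaluronan, 1 chondroitin and 3 receptor genes, and Hapln3, Chst11, Csgalnact1, Nrcam and Itgav lost their calls. With the marker index, added after the data were seen, 1855 were called (743 higher, 1112 lower; 40.1% higher), with 6 chondroitin genes and 2 of the 9 genes (Ncan and Hapln4, beside 12.5% of all genes), from which nothing is read. DESeq2 called 1400, with 1 protease gene. Scaling by the upper quartile raised the higher share from 49.0% to 62.0%. Low counts limit Acan (100 to 210 per mouse) and Hapln3 (10 to 39). The intervals give the uncertainty of the difference between the genotypes, estimated from the spread between these mice.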
